A study of Mus musculus with 15 samples.

Results

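Whole fetal mouse gonads that were chromosomally XY and lacked both *Amh* and *Inhbb* were set against wild-type testes of the same age. The comparison took every transcript cluster of the array, the unit that stands for 1 transcribed region, and left the control probes out, so that 65956 of the 72688 deposited entries were compared over 10 of the 15 samples of the study. The tested gonads had the genotype Amh-/-; Inhbb-/- (dKO XY, n = 5) and came from timed crosses of Amh+/-; Inhbb+/- parents. The wild-type male litter mates gave the testes (control XY, n = 5), and wild-type female litter mates gave the ovaries (control XX, n = 5), whose levels are given here only as values beside the comparison. The labels give the age as embryonic day 15.5 (E15.5) for every embryo; the data statement of the study lists these arrays under an earlier stage. The gonads were freed of the mesonephros, and each array read 1 sample, which the study describes as an independent biological replicate. Both deletions were present in every cell of the body from conception, the RNA was amplified before labelling, and the whole gonad was used. Fewer cells of a type and less RNA per cell can therefore not be told apart anywhere in these data.

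*Amh* encodes anti-Müllerian hormone and *Inhbb* the beta subunit of activin B, both secreted ligands of the TGF-beta family. In the fetal testis both come from Sertoli cells, the supporting cells that surround the germ cells in cords. AMH signals through its own type II receptor AMHR2, activin B through the activin receptors, and both hand the signal to SMAD proteins. The supporting cells of the ovary, the pregranulosa cells, depend on R-spondin and WNT signals and on FOXL2. Germ cells of the fetal ovary enter meiosis at this age, while those of the fetal testis stop dividing and start the piRNA and DNA methylation programme of the male germ line.

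The 15 arrays were similar in overall signal, with medians of 5.17 to 5.33 on the deposited log2 scale, and no 2 arrays held the same values. The scale ran to 19.93 and 891 clusters passed 16 on some array, more than a 16-bit scanner gives on a plain log2 scale. Differences are therefore given in deposited log2 units, and their true ratios may be smaller. Among the control XY arrays, array 5 had the highest median of the negative control probes, at 6.61 against 6.13 to 6.35 for the other 4, where dKO XY arrays lay at 6.15 to 6.3. Array 2 of control XY was the nearest to dKO XY on the second principal component, at 16.9 against -22.7 to -22 for arrays 1, 3 and 4 and -49.5 for array 5, with 23.5 to 52.9 in dKO XY.

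Between dKO XY and control XY, 374 clusters were higher in dKO XY and 1070 were lower. A cluster was called where the Benjamini-Hochberg adjusted p of limma, taken over all 65956 clusters, was below 0.05 and the difference was at least 1 deposited log2 unit. The background shares of called clusters were 0.567% for higher and 1.62% for lower. At an adjusted p below 0.05 alone, with no minimum difference, 2911 clusters were higher and 3972 lower. Counts of list genes given below at that threshold stand beside these larger numbers of clusters. The share over genes alone was not counted at that threshold. With 1 cluster standing for each of 30176 gene symbols, 278 genes were higher and 255 were lower, background shares of 0.921% and 0.845%, so that the excess of lower calls lay outside the named genes. Of the lower clusters, 271 had a single symbol, 86 had more than 1 and 713 had none, whereas 282, 18 and 74 of the higher clusters fell into these classes. Of all clusters, 4.26% had every dKO XY array above every control XY array and 0.649% above all 10 control arrays. Of the 374 higher clusters, 350 had no overlap with control XY, a pattern that the call itself favours. The quartiles of all differences were -0.11 and 0.11, with a median of 0.01, and the extremes were *M1ap* at 4.98 and *Amh* at -6.96.

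**Figure D1:**
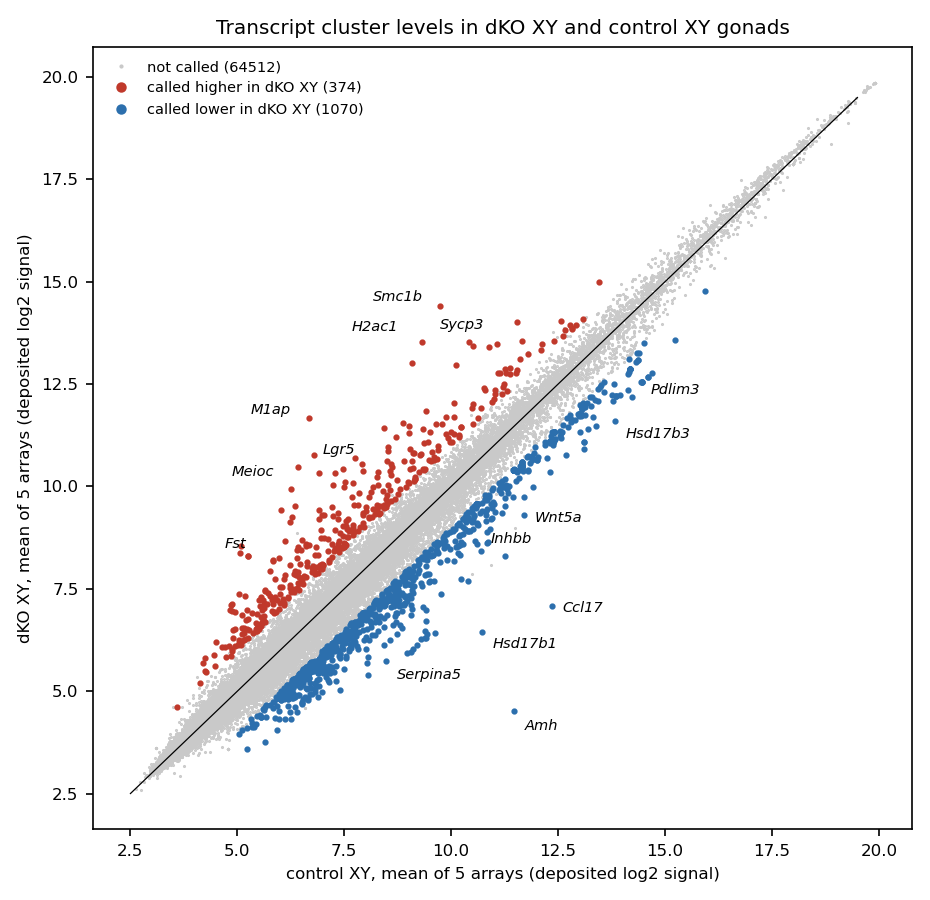
Mean deposited log2 signal of each of 65956 transcript clusters in dKO XY (vertical axis) against control XY (horizontal axis), 5 arrays each, with called clusters in colour and the line of equal levels in black. The 374 higher clusters reach 4.98 above the line (*M1ap*), and the 1070 lower clusters include *Amh*, *Ccl17* and *Hsd17b1* far below it.

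The targeted genes came first as a check of the labels. *Amh* had levels of 4.4, 4.61, 4.72, 4.42 and 4.4 on dKO XY arrays 1 to 5, against 11.79, 11.52, 10.94, 11.01 and 12.09 on control XY arrays 1 to 5; replicate values are given in this order throughout. The difference was -6.96 ± 0.18 (SE; limma, two-sided, adjusted p = 2.5e-12). All dKO XY values lay under 5.84, the 95th percentile of the 23 antigenomic background probes, so the size of the fall is set by the background, and control XX averaged 4.31 ± 0.14 (SD, n = 5). *Inhbb* had 9.38, 9.17, 9.19, 9.25 and 9.36 in dKO XY, against 10.6, 10.33, 10.5, 10.56 and 10.63 in control XY. The groups did not overlap, and the difference was -1.26 ± 0.08 (adjusted p = 6.8e-08), with 9.18 ± 0.1 in control XX. The *Inhbb* signal that was left in dKO XY stayed well above background; where the probes of the cluster lie against the deleted part is not given in the sources used here, and probes outside it do not test the deletion.

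Of the 25 largest rises that the naming rule gave, 12 were genes of the 4 meiotic lists. The cohesin subunit gene *Smc1b*, which is particular to meiotic chromosomes, had 15.17, 14.04, 14.76, 14.28 and 13.83 in dKO XY, against 9.25, 10.8, 9.99, 9.56 and 9.08 in control XY, a difference of 4.68 ± 0.29 (adjusted p = 7.5e-08). *M1ap*, a gene needed for meiosis in male germ cells, had 12.48, 11.18, 11.89, 11.41 and 11.34 in dKO XY, against 6.63, 6.42, 7.29, 6.75 and 6.33 in control XY, a difference of 4.98 ± 0.27 (adjusted p = 2.9e-08). *Stra8*, the retinoic acid responsive gene that opens meiotic entry, had 10.43, 8.62, 10.12, 9.49 and 8.99 in dKO XY, against 6.53, 6.5, 6.48, 6.14 and 6.1 in control XY (difference 3.18 ± 0.41, adjusted p = 0.0001). In all 3 genes every dKO XY array lay above every control XY array, and array 1 of dKO XY was the highest. Control XX averaged 16.12 for *Smc1b*, 14.3 for *M1ap* and 11.29 for *Stra8*, above the dKO XY means in each case.

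By role, 7 of 13 measured meiotic entry genes rose and none fell, against the background shares of 0.921% and 0.845% for genes. Their median difference was 1.04, where the median over all genes was 0.03. They included *Meioc* (4.05 ± 0.29), whose product keeps germ cells in meiotic prophase, *Bhmg1* (3.96 ± 0.21), also known as *Meiosin*, which encodes the partner of STRA8, and *Sohlh2* (3.42 ± 0.52), a transcription factor of early germ cells, with limma adjusted p of 3.3e-07, 1.7e-08 and 0.00051. *Dmrt1* (0.08 ± 0.29) and *Msx2* (-0.06 ± 0.15) were not called. *Tex15* was called at 1.04 (adjusted p = 0.028), but its call rested on single arrays: without control XY array 2 the difference was 0.67 (adjusted p = 0.002), and without control XY array 4 or any 1 of dKO XY arrays 1, 3, 4 and 5 the adjusted p was 0.05 or above.

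Of 15 measured genes of the chromosome axis and the synaptonemal complex, the scaffold that holds paired chromosomes together, 12 rose and none fell, with a median difference of 1.98. *Sycp1* (3.1 ± 0.26), the transverse filament, *Sycp3* (2.92 ± 0.21), the axis protein, *Hormad1* (2.45 ± 0.17) and the central element gene *Syce1* (2.44 ± 0.2) were among them (adjusted p = 2e-06, 3.3e-07, 3.1e-07 and 1.3e-06 by limma). The members that were not called were *Syce3* (0.58), *Mei4* (0.74) and *Trip13* (0.12). In the recombination list 14 of 18 rose and none fell, with a median of 1.32. Besides *M1ap*, given above, they ran from *Prdm9* (3.68 ± 0.28), which marks the sites of meiotic breaks, *Meiob* (3.31 ± 0.32) and *Dmc1* (2.67 ± 0.22), the meiotic strand exchange protein, to *Iho1* (2.16 ± 0.19), *Spo11* (1.29 ± 0.18), the enzyme that cuts the DNA, and *Msh4* (1.01). Without dKO XY array 1, *Msh4* (0.83), *Mei1* (0.97) and *4930432K21Rik* (0.97) dropped below the minimum difference. *Msh4* also did so without control XY array 1 (0.94) or 5 (0.96) or dKO XY array 2 (0.96). Of 6 measured genes that tether telomeres to the nuclear envelope, *Terb1* (3.41 ± 0.25), *Majin* (2.34 ± 0.22) and *Terb2* (1.44 ± 0.15) rose, and the other 3 were not called. *Meiob*, *Mei1*, *Msh4*, *Majin* and *Terb2* lay under the 5.84 of the background probes on every control XY array. Background therefore limits the measured size of their rises.

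Other germ line genes rose alongside. The testis histone variant gene *H2ac1* had 14.19, 12.91, 14.15, 13.3 and 13.15 in dKO XY, against 9.82, 9.94, 9.3, 8.71 and 8.82 in control XY (4.22 ± 0.31, adjusted p = 4.9e-07). The X-linked *Xlr4a* (2.8), *Xlr4c* (2.48), *Xlr4d-ps* (3) and *Xlr4e-ps* (2.95) rose together; these copies are near-identical and the array may not tell them apart. Of 14 measured genes that germ cells of both sexes use, *Taf7l* (2.44 ± 0.18), *Dazl* (1.56 ± 0.31) and *Tex101* (1.44 ± 0.24) rose. The general germ cell marker *Ddx4*, an RNA helicase, had 14.61, 14, 14.3, 14.7 and 14.54 in dKO XY, against 13.85, 14.19, 14.63, 14.18 and 14.19 in control XY (0.22 ± 0.19, adjusted p = 0.57), so the 2 groups overlapped. No gene of that list was called lower with all arrays, and 1 was without control XY array 1 or 2 or dKO XY array 5. Of 15 oocyte genes none was called in either direction (limma; 2 had an adjusted p below 0.05 and were higher, 1 was lower); *Figla*, a transcription factor of the oocyte, was closest, with 7.37, 6.32, 6.06, 6.37 and 6.07 in dKO XY and 5.54, 5.53, 5.31, 5.35 and 5.47 in control XY. Its difference of 1 (adjusted p = 0.0025) fell just short of the minimum, and it was called without control XY array 1 (1.02), 2 (1.02) or 5 (1) or without dKO XY array 2 (1.03), 3 (1.09), 4 (1.01) or 5 (1.09).

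Promoters of the meiotic genes that rose are shown because several share 2 short motifs. The windows are those of RefSeq on GRCm38.p6, 300 bases from 250 before to 50 after a gene's start, written along the gene's strand. Capitals mark GCGGGAA, an E2F-type motif, or its reverse complement TTCCCGC, and CACGTG, the E-box.
*Smc1b*, chr15:85131908-85132207, minus strand: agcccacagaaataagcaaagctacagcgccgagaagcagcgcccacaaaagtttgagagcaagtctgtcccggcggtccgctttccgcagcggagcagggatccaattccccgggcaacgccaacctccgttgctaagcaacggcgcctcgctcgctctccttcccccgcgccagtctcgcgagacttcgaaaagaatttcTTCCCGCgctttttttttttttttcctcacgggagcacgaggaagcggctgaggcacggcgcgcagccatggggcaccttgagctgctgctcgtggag
*Meioc*, chr11:102665335-102665634, plus strand: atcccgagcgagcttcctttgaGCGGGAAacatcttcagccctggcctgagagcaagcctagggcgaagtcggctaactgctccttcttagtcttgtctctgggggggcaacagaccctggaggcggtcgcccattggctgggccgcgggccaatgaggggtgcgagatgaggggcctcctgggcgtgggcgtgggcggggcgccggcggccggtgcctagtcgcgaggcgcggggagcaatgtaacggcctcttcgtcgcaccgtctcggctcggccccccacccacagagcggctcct
*Bhmg1*, chr7:19118295-19118594, minus strand: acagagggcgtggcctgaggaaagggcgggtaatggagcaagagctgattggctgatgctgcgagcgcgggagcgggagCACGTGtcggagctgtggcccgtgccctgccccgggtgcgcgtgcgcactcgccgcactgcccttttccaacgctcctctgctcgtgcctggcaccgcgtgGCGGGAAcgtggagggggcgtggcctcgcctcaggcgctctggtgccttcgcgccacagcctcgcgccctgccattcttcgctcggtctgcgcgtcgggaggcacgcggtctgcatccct
*Prdm9*, chr17:15564305-15564604, minus strand: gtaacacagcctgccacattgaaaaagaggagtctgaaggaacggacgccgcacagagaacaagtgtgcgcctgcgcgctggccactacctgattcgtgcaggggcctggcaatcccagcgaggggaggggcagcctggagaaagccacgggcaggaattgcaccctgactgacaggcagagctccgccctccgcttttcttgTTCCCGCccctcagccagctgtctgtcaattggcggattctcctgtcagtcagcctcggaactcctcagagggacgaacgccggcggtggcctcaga
*Sycp3*, chr10:88459337-88459636, plus strand: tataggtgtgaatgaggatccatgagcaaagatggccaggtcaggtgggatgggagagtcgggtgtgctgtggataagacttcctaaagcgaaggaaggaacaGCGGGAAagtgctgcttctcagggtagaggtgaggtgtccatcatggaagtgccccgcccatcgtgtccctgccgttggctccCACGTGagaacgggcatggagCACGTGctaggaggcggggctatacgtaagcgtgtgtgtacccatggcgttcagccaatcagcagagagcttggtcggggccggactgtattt
*Hormad1*, chr3:95559427-95559726, plus strand: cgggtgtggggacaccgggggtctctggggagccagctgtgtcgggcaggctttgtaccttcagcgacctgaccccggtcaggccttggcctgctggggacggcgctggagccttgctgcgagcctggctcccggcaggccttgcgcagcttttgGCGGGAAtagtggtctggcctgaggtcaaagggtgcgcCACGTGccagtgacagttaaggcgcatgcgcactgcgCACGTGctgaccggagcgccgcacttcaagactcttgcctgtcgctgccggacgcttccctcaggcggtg

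The E2F-type motif lay 48 bases before the start of *Smc1b* and 47 before that of *Prdm9*, on the opposite strand in both, and on the gene's own strand 70 before *Bhmg1*, 95 before *Hormad1*, 147 before *Sycp3* and 228 before *Meioc*. Both strands were searched for each motif, and in the windows shown no GCGGGAA overlapped a CACGTG. The 6 windows were picked after the matches were known. *Prdm9* and *Hormad1* have 2 windows each, of which 1 with GCGGGAA is shown. In the shares below, a gene with several windows counted as holding a motif if any of them did. Of 205 higher genes with a window in the table, 30 held GCGGGAA (14.6%), against 3 of 133 lower genes (2.26%), 6.61% of the 17972 tested genes with a window and 5.29% of all 27025 symbols. Among the higher genes of the 4 meiotic lists it was 11 of 28 (39.3%), and among the remaining higher genes 19 of 177 (10.7%). The E-box was held by 27 of 205 higher genes (13.2%), 18 of 133 lower genes (13.5%), 8.96% of tested genes and 8.09% of all symbols. The forkhead-type motif TGTTTAC was in 5 higher and 5 lower genes (2.44% and 3.76%, with 3.56% of tested genes and 4.05% of all symbols), and the NR5A1-type motif CAAGGTCA in 2 higher and 0 lower genes (0.976%, with 1.53% of tested genes and 1.76% of all symbols). These shares describe letters in a window, with no test, and say nothing of what binds there.

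Genes of the male germ line went the other way, with a wide spread between arrays. Of 15 measured piRNA and male germ cell genes 5 fell and none rose (median -0.73): *Piwil4* (-2.95 ± 0.6), the nuclear piRNA-binding protein of fetal male germ cells, *Tdrd9* (-2.27 ± 0.56), *Morc1* (-2.22 ± 0.49), *Dnmt3l* (-1.76 ± 0.3), the cofactor of de novo DNA methylation, and *Dppa4* (-1.29 ± 0.37). *Piwil4* had 7.75, 9.21, 6.43, 8.84 and 9.34 in dKO XY, against 11.93, 8.88, 12.3, 11.3 and 11.91 in control XY (limma adjusted p = 0.0043). Array 2 of control XY lay inside the dKO XY range, and array 3 of dKO XY was the lowest. *Tdrd9*, *Morc1* and *Dppa4* overlapped in the same way, *Dnmt3l* did not (dKO XY 4.37 to 5.05, control XY 5.07 to 7.16), and *Nanos2*, an RNA-binding protein of fetal male germ cells, had almost no difference (-0.06 ± 0.22). The *Dppa4* call (adjusted p = 0.034) was lost without any 1 of control XY arrays 3, 4 and 5 or dKO XY arrays 1, 2 and 3, with adjusted p of 0.055 to 0.092, and *Tdrd9* reached 0.051 where the 2 XY groups were fitted alone. Without control XY array 2, 7 genes of the list were called lower: *Piwil2* (-1.5, adjusted p = 0.0023) and *Tdrd1* (-1.32, adjusted p = 0.0061) passed as well, and *Piwil4* was at -3.55.

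Of 17 pluripotency genes, which germ cells switch off as they differentiate, *Sox2* (1.42 ± 0.34), *Tcl1* (1.06 ± 0.26) and *Prdm14* (1.09 ± 0.33) rose and *Dppa4*, named above, fell. *Sox2* had 8.53, 6.93, 8.16, 8.35 and 8.32 in dKO XY, against 6.04, 7.61, 6.96, 6.67 and 5.92 in control XY (adjusted p = 0.012), so that array 2 was the lowest of dKO XY and the highest of control XY. *Tcl1* and *Prdm14* showed the same 2 arrays out of place, and control XX averaged 6.16, 5.52 and 4.89 for the 3 genes. The *Prdm14* call (adjusted p = 0.044) was lost without any 1 array other than control XY array 2 and dKO XY array 2, with adjusted p of 0.08 to 0.11, and with the replicate number as a block (0.1). The *Tcl1* difference was 0.91, 0.97 and 0.98 without control XY array 1, control XY array 5 and dKO XY array 4. Without control XY array 2 the differences of *Sox2*, *Tcl1* and *Prdm14* were 1.66, 1.29 and 1.4. *Pou5f1* (0.22 ± 0.28) was not called. *Nanog* (1.04, adjusted p = 0.081) was not called with all arrays, but was called without control XY array 2 (1.36, adjusted p = 0.0066) or dKO XY array 2 (1.31, adjusted p = 0.02).

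**Figure D2:**
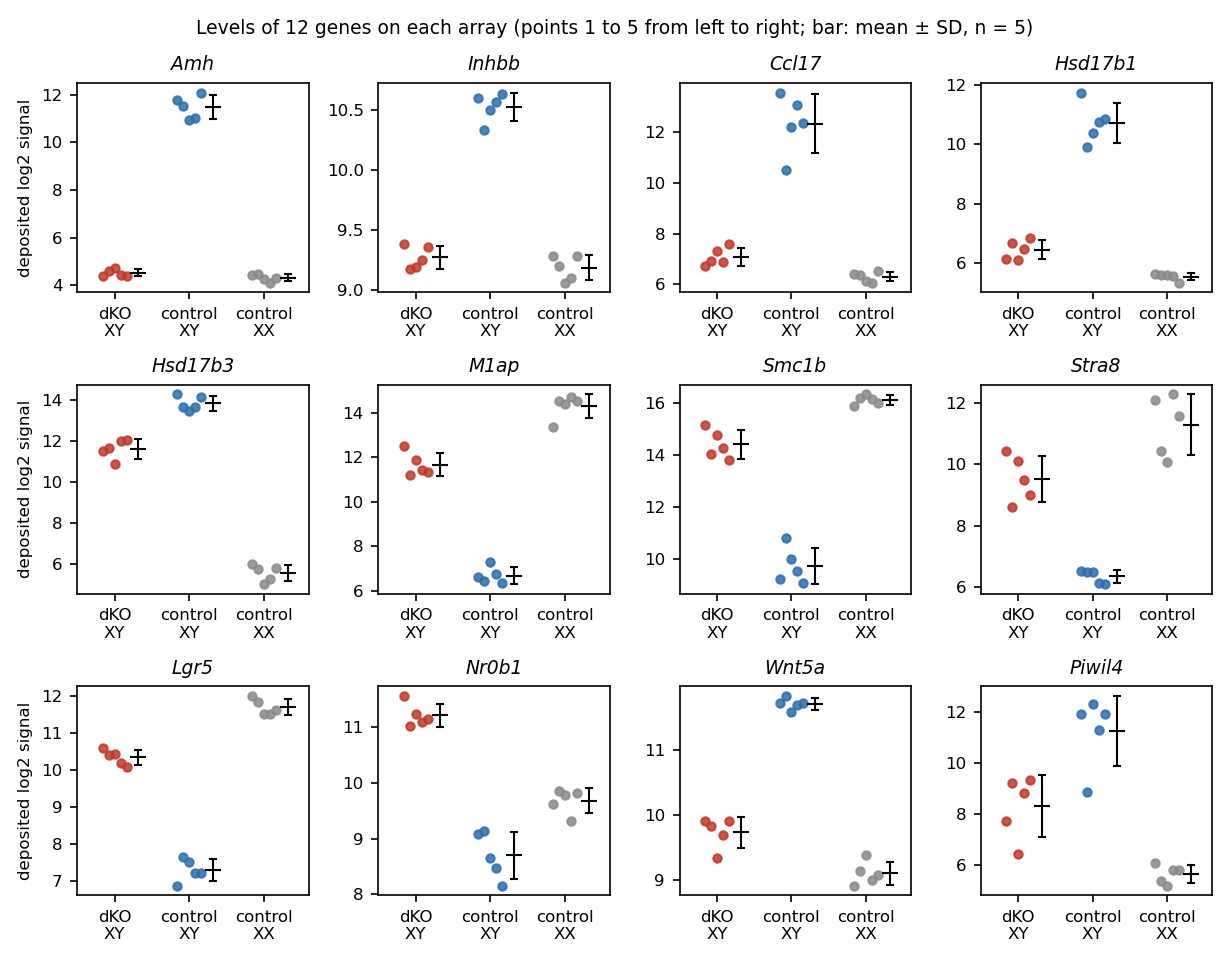
Deposited log2 signal of 12 genes on each array, in dKO XY, control XY and control XX, with arrays 1 to 5 from left to right and the mean ± SD (n = 5) beside them; each panel has its own vertical axis. *Amh*, *Hsd17b1* and *M1ap* separate dKO XY from control XY without overlap, whereas in *Piwil4* array 2 of control XY (8.88) lies inside the dKO XY range.

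Genes of ovarian supporting cells rose as a group. Of 17 measured granulosa cell genes 10 were higher and none was lower, with a median difference of 1.08 beside 0.03 over all genes. *Lgr5*, an R-spondin receptor of the ovarian surface and supporting lineage, had 10.59, 10.4, 10.41, 10.17 and 10.08 in dKO XY, against 6.87, 7.63, 7.51, 7.2 and 7.2 in control XY, a difference of 3.05 ± 0.14 (adjusted p = 4.3e-09). *Fst*, which encodes the activin-binding protein follistatin, had 8.65, 8.39, 8.84, 7.48 and 7.9 in dKO XY, against 6.12, 5.9, 5.9, 5.97 and 6.02 in control XY (2.27 ± 0.21, adjusted p = 3.9e-06), where control XX averaged 11.43. Neither gene had any overlap between the 2 XY groups.

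The other called members were *Nr0b1* (2.51 ± 0.17), *Rspo1* (2.33 ± 0.15), the R-spondin that drives ovarian fate, *Runx1* (1.75 ± 0.08), a transcription factor of pregranulosa cells, *Cdkn1c* (1.28 ± 0.17), *Kitl* (1.23 ± 0.13), the KIT ligand, *Gng13* (1.12 ± 0.15), *Foxl2* (1.08 ± 0.15) and *Irx3* (1.01 ± 0.1). *Foxl2* itself, the defining transcription factor, had 5.24, 5.09, 5.29, 4.97 and 5.47 in dKO XY, against 4.29, 4.01, 3.85, 4.28 and 4.21 in control XY. Its dKO XY values were still below the 5.84 of the background probes, while control XX averaged 7.16, so its level in dKO XY is poorly measured. Control XY values of *Runx1*, at 5.47 to 5.64, also lay under 5.84, so background limits the measured size of its rise. *Irx3* missed the minimum difference without control XY array 4 (0.98) or 5 (0.99) or dKO XY array 3 (0.93). *Wnt4*, the ovarian WNT ligand, was not called (0.21 ± 0.14, adjusted p = 0.44).

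Among 11 genes of WNT and R-spondin response none passed both criteria upwards; 6 had an adjusted p below 0.05 and a positive difference, led by the feedback gene *Axin2* (0.84 ± 0.09, adjusted p = 1.4e-05), whose groups did not overlap. The 1 member called lower was *Wnt5a*, a ligand of the interstitium that acts mainly outside the beta-catenin branch, which is given with the interstitial genes. Levels of *Nr0b1*, an X-linked nuclear receptor that opposes NR5A1, were 11.57, 11.03, 11.23, 11.09 and 11.14 in dKO XY, against 9.09, 9.14, 8.65, 8.47 and 8.16 in control XY and a mean of 9.68 in control XX.

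The Sertoli cell list was mixed. Of 25 measured genes 5 fell and 2 rose, with a median difference of -0.04. *Hsd17b1*, which encodes a steroid dehydrogenase of Sertoli cells, had 6.14, 6.69, 6.11, 6.48 and 6.85 in dKO XY, against 11.75, 9.92, 10.38, 10.76 and 10.85 in control XY, a difference of -4.28 ± 0.25 (adjusted p = 4.2e-08). *Hsd17b3*, which in the fetal testis makes testosterone from androstenedione in Sertoli cells, had 11.5, 11.63, 10.85, 11.98 and 12.04 in dKO XY, against 14.28, 13.67, 13.43, 13.64 and 14.14 in control XY (-2.23 ± 0.23, adjusted p = 1.5e-05). Both genes separated the groups, but they ended at different places: control XX averaged 5.55 for *Hsd17b1*, close to dKO XY, and 5.56 for *Hsd17b3*, far below dKO XY.

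*Fshr* (-1.67 ± 0.19), the receptor of follicle-stimulating hormone, *Defb19* (-1.22 ± 0.17), a beta-defensin of Sertoli cells, and *Gdnf* (-1.01 ± 0.1), the growth factor for male germ cells, were the other falls. *Gdnf* stood at the minimum difference, and without control XY array 2 or 4 or dKO XY array 2 or 5 it was between -1 and -0.95 and not called. *Cldn11* (1.63 ± 0.17), a claudin of Sertoli cell junctions, rose, with 9.34, 9.45, 9.25, 8.97 and 9.04 in dKO XY, against 7.46, 7.71, 7.96, 7.85 and 6.91 in control XY and a mean of 6.88 in control XX. The call of the cystatin *Cst12* (1.2 ± 0.32, adjusted p = 0.022) was lost without control XY array 3 or 4 or dKO XY array 1, 3 or 4 (adjusted p of 0.051 to 0.064). *Sox9*, the transcription factor that sets Sertoli fate, had 9.8, 9.95, 9.78, 10.01 and 9.94 in dKO XY, against 10.06, 10.19, 9.9, 9.96 and 9.86 in control XY (-0.1 ± 0.08, adjusted p = 0.55), and control XX averaged 6.95. *Dhh* (-0.85 ± 0.11) and *Sox8* (-0.74 ± 0.12) had adjusted p of 9e-05 and 0.00075 without reaching the minimum difference. On the higher side, *Cst9* (0.99 ± 0.29) and *Aard* (0.62 ± 0.11) had limma adjusted p of 0.039 and 0.0018 and also missed it. *Cst9* was called without control XY array 2 (1.11). At an adjusted p below 0.05 alone, 6 genes of the list were higher and 10 lower, called genes included.

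**Figure D3:**
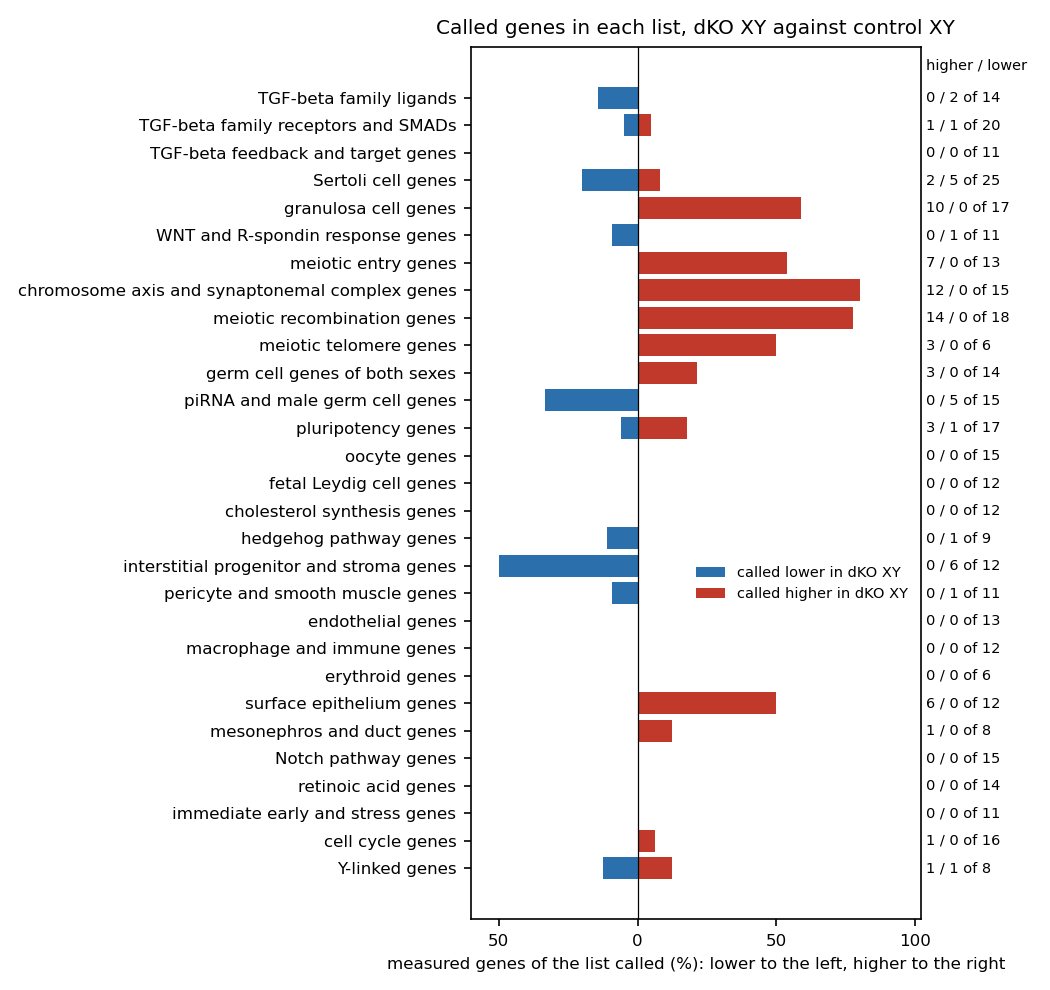
Share of the measured genes of each of 29 lists called higher (right) or lower (left) in dKO XY against control XY, with the counts at the right edge. The 4 meiotic lists and the granulosa list hold only higher calls, led by 12 of 15 for the axis and synaptonemal complex, and the interstitial list holds only lower calls (6 of 12).

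Within the TGF-beta family beyond the targeted genes, few members changed. Of 14 ligands *Inhba* (-1.06 ± 0.12), the beta A subunit of activin, and *Tgfb2* (-1.02 ± 0.18) fell, and none rose, with a median of -0.1. *Inhba* had 8.58, 8.6, 8.08, 8.51 and 8.62 in dKO XY, against 9.82, 9.36, 9.22, 9.53 and 9.74 in control XY (limma adjusted p = 4e-05). Both calls stood near the minimum difference: *Inhba* was at -0.98 without control XY array 1 and -0.96 without dKO XY array 3, and *Tgfb2* at -0.96, -0.93 and -0.97 without control XY array 2, dKO XY array 3 and dKO XY array 4. *Inha*, the inhibin alpha subunit, differed by -0.86 ± 0.18 (adjusted p = 0.0049). *Bmp7* (0.82 ± 0.12) and *Bmp2* (0.7 ± 0.15) went the other way, with limma adjusted p of 0.00043 and 0.0049, and also missed the minimum difference. At an adjusted p below 0.05 alone, 2 ligands were higher and 4 lower, called genes included.

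The AMH receptor gene *Amhr2* rose, with 11.02, 10.95, 11.14, 10.7 and 10.81 in dKO XY, against 9.08, 9.2, 9.13, 9.12 and 8.7 in control XY (1.88 ± 0.12, adjusted p = 9.3e-08) and a mean of 11.4 in control XX. The type I receptor gene *Acvrl1*, best known from endothelium, fell (-1.2 ± 0.1, adjusted p = 1.6e-06), with 7.46, 7.49, 7.33, 7.46 and 7.59 in dKO XY and 8.8, 8.46, 8.58, 8.77 and 8.72 in control XY. The other 18 of the 20 receptors and SMADs were not called. With those 2, 4 members were higher and 5 lower at an adjusted p below 0.05, among them the receptor genes *Acvr1* (-0.43 ± 0.07, adjusted p = 0.00097) and *Acvr1b* (-0.53 ± 0.1, adjusted p = 0.0031) and *Smad5* (0.39 ± 0.08, adjusted p = 0.0044). Of 11 feedback and target genes none was called by limma in either direction. The 2 with an adjusted p below 0.05 were both lower, *Smad7* (-0.69 ± 0.08, adjusted p = 2.3e-05), the inhibitory SMAD, and *Pmepa1* (-0.66, adjusted p = 0.0024).

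Genes of the interstitial stroma fell. Of 12 measured interstitial progenitor and stroma genes 6 fell and none rose, with a median of -1.02. On the lower side 11 had an adjusted p below 0.05, where 3972 of all 65956 clusters, with or without a symbol, did. *Wnt5a* had 9.91, 9.84, 9.34, 9.7 and 9.91 in dKO XY, against 11.72, 11.84, 11.58, 11.7 and 11.72 in control XY (-1.97 ± 0.11, adjusted p = 3.9e-08). *Cxcl12*, a chemokine of stromal cells, had 9.8, 10.09, 9.06, 9.68 and 9.92 in dKO XY, against 11.35, 11.15, 11.28, 11.4 and 11.17 in control XY (-1.56 ± 0.19, adjusted p = 7.6e-05). Neither gene overlapped between the groups, and array 3 was the lowest of dKO XY for both.

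The other 4 were *Col1a1* (-1.37), *Dlk1* (-1.34 ± 0.21), a paternally expressed ligand of progenitor cells, *Tcf21* (-1.25 ± 0.22), a transcription factor of gonadal progenitors, and *Col1a2* (-1.08), which was at -0.96 and not called without dKO XY array 3. Of 11 pericyte and smooth muscle genes *Tagln* (-1.51 ± 0.29) was called lower, and 8 had an adjusted p below 0.05 on that side. Of 12 fetal Leydig cell genes none was called by limma, with 3 lower and 1 higher at an adjusted p below 0.05 and a median of -0.33: *Cyp17a1* had 18.76, 19.08, 18.66, 18.9 and 18.96 in dKO XY, against 19.38, 19.15, 19.22, 19.29 and 19.35 in control XY (-0.4 ± 0.39, adjusted p = 0.64), at the top of the scale and without overlap, and *Star* differed by -0.6 ± 0.18 (adjusted p = 0.045). The SE of *Cyp17a1* takes in the spread of control XX (SD 1.21, against 0.16 in dKO XY and 0.1 in control XY). The adjusted p of *Cyp17a1* therefore does not measure the XY groups alone. The 12 cholesterol synthesis genes were all below 0, from -0.74 to -0.26 with a median of -0.5, 8 of them with an adjusted p below 0.05 and none called. In the hedgehog pathway, through which *Dhh* from Sertoli cells reaches Leydig progenitors, *Hhip*, which binds the ligand, was the 1 call of 9, with 9.49, 9.53, 9.42, 9.33 and 10.08 in dKO XY, against 11.09, 11.19, 10.77, 11.14 and 10.81 in control XY (-1.43 ± 0.14, adjusted p = 7.2e-06). *Gli1* differed by -0.75 (adjusted p = 0.0017).

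Genes of the surface epithelium rose. Of 12 measured, 6 were higher and none was lower, with a median of 0.88, and all 12 differences were above 0. The keratin gene *Krt18* had 8.84, 8.33, 8.24, 8.32 and 8.46 in dKO XY, against 6.66, 6.46, 6.56, 6.55 and 6.22 in control XY (1.95 ± 0.14, adjusted p = 4.9e-07). *Krt8* (1.84 ± 0.2), its partner, *Upk3b* (1.81 ± 0.19), a mesothelial uroplakin, *Muc16* (1.37), *Krt19* (1.18) and *Wt1* (1.03 ± 0.13), a transcription factor of epithelium and supporting cells, were the others. *Wt1* was not called without control XY array 1 (0.96) or 5 (0.98). Of 8 mesonephros and duct genes *Emx2* (1.12 ± 0.16) rose, a homeobox gene that the gonadal epithelium also uses, and the list had a median of 0.05.

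Lists for other cells and for sample quality gave few calls. None of 13 endothelial, 12 macrophage and immune or 6 erythroid genes was called (limma), and none of them had an adjusted p below 0.05. The mean level of the erythroid list was 7.4 to 8.43 in dKO XY and 6.92 to 8.29 in control XY, that of the immune list 6.28 to 6.44 and 6.09 to 6.3, and that of the endothelial list 8.4 to 8.71 and 8.48 to 8.61. Notch (15 genes), retinoic acid (14) and immediate early and stress genes (11) had no call either, with medians of -0.16, -0.04 and -0.05. At an adjusted p below 0.05 alone, 5 Notch genes were lower and none was higher. At that threshold 2 retinoic acid genes were higher and 2 lower, and 1 stress gene was higher and 2 lower. Of all 65956 clusters, 2911 were higher and 3972 lower. In the cell cycle list the inhibitor gene *Cdkn1a* rose as the 1 call of 16, with 8.73, 8.6, 9.02, 8.34 and 7.96 in dKO XY, against 6.56, 7.54, 6.86, 6.79 and 6.47 in control XY (1.69 ± 0.21, adjusted p = 9.1e-05). *Mki67*, a proliferation marker, differed by -0.05.

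The lists also showed how the dKO XY gonads varied among themselves. The mean level of the axis and synaptonemal complex list was 11.25, 10.35, 10.82, 10.63 and 10.42 in dKO XY, against 8.51, 8.76, 9.03, 8.56 and 8.59 in control XY, and 11.96 to 12.27 in control XX. Array 1 of dKO XY was the highest of its group here and for the meiotic entry (9.77), recombination (8.93), telomere (8.18) and granulosa (8.69) lists. The interstitial list averaged 11.31, 11.57, 10.87, 11.21 and 11.43 in dKO XY, against 12.41, 12.32, 12.41, 12.46 and 12.22 in control XY. Array 3 of dKO XY was the lowest here, for the Sertoli list (8.5, others 8.7 to 8.8) and for the piRNA and male germ cell list (7.68, others 8.36 to 9). The piRNA and male germ cell list was the 1 of these whose XY groups overlapped, since array 2 of control XY was at 8.58 and the other control XY arrays at 9.36 to 10.05.

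**Figure D4:**
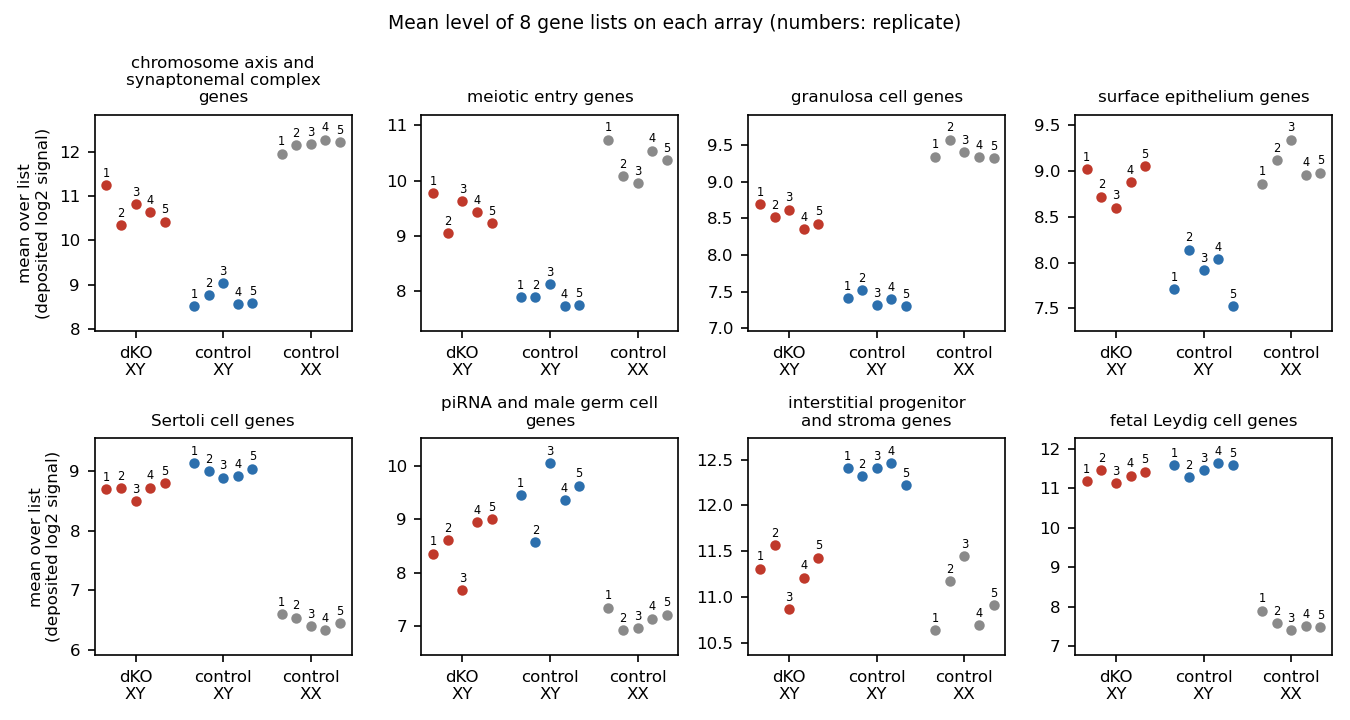
Mean deposited log2 signal over the measured genes of 8 lists on each array in dKO XY, control XY and control XX, with the replicate number above each point; each panel has its own vertical axis. Array 1 of dKO XY is the highest of its group for the axis list (11.25), array 3 the lowest for the interstitial list (10.87), and array 2 of control XY (8.58) falls among dKO XY arrays for the piRNA and male germ cell list.

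Among the remaining genes with the largest differences, *Ccl17*, a chemokine, followed *Amh*. It had 6.72, 6.92, 7.31, 6.9 and 7.61 in dKO XY, against 13.58, 10.5, 12.2, 13.07 and 12.39 in control XY (-5.26 ± 0.4, adjusted p = 6.6e-07), and control XX averaged 6.3. *Serpina5*, a serine protease inhibitor of the male tract, had 5.57, 5.88, 5.71, 5.57 and 6 in dKO XY, against 9.83, 7.21, 8.24, 8.87 and 8.27 in control XY (-2.74 ± 0.33, adjusted p = 5.3e-05). For both genes array 2 of control XY was the lowest of its group and still above all dKO XY arrays.

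The other falls among the 25 largest, between -2.38 and -1.6, mixed several roles. Secreted or matrix proteins were *Kazald1* (-2.33), *Sostdc1* (-1.94), an antagonist of BMP and WNT signals, *Spock2* (-1.78), *Svep1* (-1.74), *Emilin3* (-1.73) and the protease *Adamts5* (-1.66). *Ctsl* (-1.65), the lysosomal protease cathepsin L, had 13.78, 13.46, 13.32, 13.44 and 13.94 in dKO XY, against 15.67, 14.82, 15.12, 15.4 and 15.21 in control XY. *Efna5* (-1.83), an ephrin, *Fat3* (-1.6), a protocadherin, *Pdlim3* (-1.87), *Arhgap20* (-1.96), *Adcy2* (-1.73), an adenylate cyclase, *Slc38a5* (-1.84), an amino acid transporter, *Sgpp2* (-1.98), a sphingosine phosphate phosphatase, *Khdc1c* (-1.74), *Sel1l3* (-2.38) and *Fam155a* (-1.81) made up the rest. *Fam155a* was near background, at 4.57 to 5.18 in dKO XY and 6.24 to 6.96 in control XY.

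The rest of the 25 largest rises that the naming rule gave were neither germ line genes named above nor in the granulosa list. They were *Tnfrsf19* (2.91 ± 0.17), a receptor of the TNF family, and *Podxl* (2.85 ± 0.16), the epithelial sialomucin podocalyxin. Further ones were *Ano1* (2.64 ± 0.15), a chloride channel, *Ildr2* (2.59 ± 0.1), *Pkhd1l1* (2.54 ± 0.35) and *Gxylt2* (2.51 ± 0.14), a xylosyltransferase. *Ildr2* had 10.11, 10.19, 9.94, 10.18 and 10.07 in dKO XY, against 7.56, 7.66, 7.69, 7.43 and 7.23 in control XY and a mean of 8.8 in control XX. *Podxl* had 13.13, 12.93, 13.17, 12.84 and 12.82 in dKO XY, against 9.71, 10.51, 10.22, 10.46 and 9.72 in control XY and a mean of 13.69 in control XX. A second cluster of *Tnfrsf19* near background differed by 1.04.

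Some called genes lay outside the range of both control gonads. The call came from the same arrays and favours genes whose XY groups stay apart. The shares of all genes are therefore given as a description, with no test. Of the 278 higher genes, 263 had no overlap with control XY, a pattern that 7.27% of all genes showed, and 29 had every dKO XY array above all 10 control arrays, as did 1.22% of all genes. *Nr0b1*, *Ildr2* and *Cldn11* were among the 29. Of the 255 lower genes, 174 had no overlap with control XY (5.29% of all genes), and 8 had every dKO XY array below all 10 control arrays (0.365% of all genes). The 8, named after their values were seen, were *Mir1931*, *Elovl2*, *Cd55*, *Emilin3*, *Fras1*, *Kif26b*, *Unc5c* and *Unc13b*. *Emilin3*, an extracellular matrix glycoprotein, had 7.54, 7.03, 6.91, 6.83 and 7.2 in dKO XY, against 8.64, 8.58, 9.05, 9.25 and 8.64 in control XY and a mean of 8.19 in control XX. *Cd55*, a regulator of complement, averaged 8.9 in dKO XY, against 10.39 in control XY, with 9.99 in control XX.

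Lower clusters were not spread evenly over the chromosomes. On the Y chromosome 91 of 558 clusters were lower (16.3%), on the X chromosome 3.01% of 3391 and on chromosome 12 66 of 2619 (2.52%), against 1.62% over all clusters and 0.538% to 2.04% on the other autosomes. Some Y clusters share their values: the 91 held 64 distinct sets of values, and 33 had no overlap between the groups. A call favours clusters without overlap, and 631 of all 1070 lower clusters had none. Among all clusters, called or not, 4.59% had none in this direction. Their mean level was 5.37, 5.72, 5.71, 5.85 and 6.06 in dKO XY, against 8.02, 6.12, 7.16, 6.62 and 7.53 in control XY, and 5.42 to 5.82 in control XX, which has no Y chromosome. The dKO XY level was thus near that of gonads with no Y chromosome, control XY arrays 1 and 5 were high, and array 2 was nearly as low as dKO XY. Levels in dKO XY and control XX lay around 5.84, the 95th percentile of the background probes, so they are poorly measured. Of these 91, 28 were still called without control XY array 1, 52 without array 5 and all 91 without array 2. Other Y clusters that may pass in those fits were not counted.

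Of the lower X clusters, 3 carried *Slxl1* among their symbols, a multicopy gene of the male germ line. Their mean level was 4.62, 4.83, 4.97, 4.69 and 4.77 in dKO XY, against 7.9, 4.74, 6.75, 6.4 and 7.12 in control XY, again with array 2 of control XY inside the dKO XY range, and the 3 were called also without that array. Clusters with *Sly* among their symbols, a multicopy Y gene of spermatids, numbered 9 and had differences of -1.17 to -1.07. None of them was called without control XY array 1, and 2 were without array 5. The copies are near-identical, so no single copy can be named as the source. In dKO XY the mean levels of the *Slxl1* and *Sly* clusters lay under the 5.84 of the background probes on every array.

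Y-linked genes of the fixed list were read gene by gene, with *Usp9y* also counted among the 91 lower Y clusters. Of 8 measured, *Usp9y* fell, with 6.07, 6.5, 5.52, 6.34 and 6.53 in dKO XY, against 7.07, 6.6, 7.78, 7.33 and 7.59 in control XY (-1.08 ± 0.21, adjusted p = 0.0031), and *Uba1y* rose (1.14 ± 0.24, adjusted p = 0.0054). *Usp9y* was not called without control XY array 3 (-0.96) or dKO XY array 3 (-0.91), nor *Uba1y* without control XY array 1 (0.98). *Eif2s3y* (0.21), *Kdm5d* (0.24) and *Uty* (-0.14) were not called, and their dKO XY means of 10.88, 9.58 and 10.04 stood against 5.75, 5.35 and 5.89 in control XX.

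**Figure D5:**
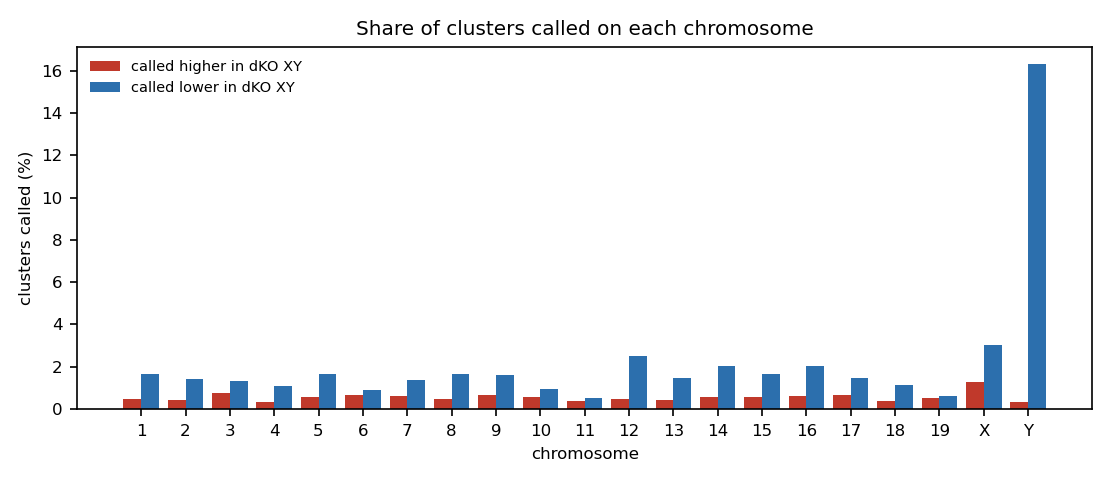
Share of the tested clusters on each chromosome called higher or lower in dKO XY against control XY (vertical axis, percent). The Y chromosome stands out with 16.3% lower, followed by the X chromosome (3.01%) and chromosome 12 (2.52%); the 91 lower Y clusters hold 64 distinct sets of values.

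Chromosome 12 held 11 of the 19 lower clusters with a single microRNA symbol, of 643 such clusters tested and 59 on that chromosome. Higher were 2 microRNA clusters. Of all clusters 1.62% were lower and 0.567% higher, and of those on chromosome 12 2.52% were lower. The mean level of the 11 was 6.99, 7.19, 6.57, 6.63 and 6.69 in dKO XY, against 8.05, 7.44, 7.99, 8.14 and 8.66 in control XY. For 8 of them the arrays of both groups stayed apart, as for 631 of all 1070 lower clusters. On chromosome 7, 19 clusters that carry *Ipw* among their symbols were lower by 1.04 with 1 and the same set of values, so they count as 1 measurement, and none was called without control XY array 1 or 5. Counting clusters of equal values once left 811 of the 1070 lower clusters and 373 of the 374 higher ones.

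The counts of lower clusters also depended on single arrays. For the 713 clusters without a gene symbol the mean level was 7.92, 8.42, 7.87, 8.24 and 8.23 in dKO XY, against 9.49, 8.84, 9.36, 9.41 and 10.09 in control XY, with array 5 of control XY the highest. Without control XY array 5, which also had the highest negative control signal, 388 clusters without a symbol were called lower, and 674 clusters in all. Of the 1070 lower clusters 651 were called in that fit too. The lower clusters with 1 gene symbol numbered 244 in that fit, and those with several symbols 42. Without control XY array 1 the clusters with several symbols numbered 30, against 86 with all arrays. The part of the negative control signal in this result was not tested.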

How the data were processed

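Each sample was 1 Affymetrix mouse transcriptome array, hybridised with RNA that had been amplified and labelled with biotin. The authors deposited 1 table of log2 values per transcript cluster, background-corrected, quantile-normalised and summarised over probes by RMA, and the values were used as deposited. The genome build of the array annotation is not given in the sources used here. RMA equalises the arrays, so a change in total RNA per gonad cannot be seen, and a probe set shared by several copies gives 1 value for all of them.

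Control probes were left out, and groups were taken from the labels. All 15 arrays entered 1 limma fit (version 3.58.1 in R 4.3.3) with a mean per group, which share 1 estimate of the spread. A wide spread in control XX therefore also widens the SE of the XY difference, as for *Cyp17a1* and *Dmrt1* (control XX SD 1.21 and 0.81). The contrast was dKO XY minus control XY, with two-sided moderated tests, Benjamini-Hochberg adjustment over all clusters, and a call at an adjusted p below 0.05 with a difference of at least 1. A gene with several clusters was represented by the one with the highest mean over the 15 arrays. The fit was tested on simulated data before use. Tables and figures were made in Python 3.11.15.

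The 29 gene lists, and the genes in them, were chosen with earlier results of these data known. Genes were named by a rule: the 25 highest and 25 lowest differences among called genes with an established symbol and no overlap between the XY groups, 6 markers, and up to 4 called members of each list with the largest moderated statistic, or the leading member where none was called. Other genes in the text were named after their values were seen. Gene symbols came from the array annotation, and promoter windows from RefSeq on GRCm38.p6 were matched by symbol. Of 420 list entries 382 were measured.

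Alternatives were a fit of the XY groups alone, centred medians, array weights, removal of dim clusters, an intensity trend, no variance moderation, the replicate number as a block, a second quantile normalisation, no minimum difference and leaving out each array. Counting clusters of equal values once was added after seeing the data. The labels give no batch. With 5 arrays per group, their number limits the precision.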

Additional observations from a re-analysis of the deposited data

Results flagged for a closer look

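In 13 of 254 groups of 5 arrays examined, 1 array lay far from the other 4, with a gap of over 0.71 of the group's range. Chance alone marks about 1 in 20 groups in this way.

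Array 2 of both XY groups recurred in pluripotency genes. *Prdm14* was at 5.53 on array 2 of dKO XY, with the other 4 at 6.62 to 6.95, and at 6.72 on array 2 of control XY, with the others at 4.89 to 5.38. *Sox2* was at 6.93 on array 2 of dKO XY, with the others at 8.16 to 8.53. The mean level of the cell cycle list was also lowest there, at 10.52 against 10.9 to 10.97. On array 2 of control XY the mean level of the Notch list was 8.17, with the others at 8.06 to 8.09.

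Array 3 of dKO XY was low for *Inhba* (8.08, others 8.51 to 8.62), *Smad7* (7.22, others 7.35 to 7.38) and *Notch3* (8.87, others 8.98 to 9.02). Array 1 of dKO XY was high for *Taf7l* (12.02, others 11.25 to 11.41) and *Figla* (7.37, others 6.06 to 6.37), and array 5 of dKO XY for *Hhip* (10.08, others 9.33 to 9.53). In control XY, array 3 was high for *Syce1* (9.04, others 8.37 to 8.46) and array 5 was low for *Amhr2* (8.7, others 9.08 to 9.2).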

How the results depend on the processing

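The count of higher clusters was 313 to 425 and that of lower clusters 674 to 1392 when each array was left out in turn, beside 374 and 1070 with all arrays. The lowest count of lower clusters came without control XY array 5 and the highest without control XY array 2. With no minimum difference, 2911 clusters were higher and 3972 lower, since most differences that passed the adjusted p were under 1. The other alternatives gave 362 to 420 higher and 811 to 1069 lower clusters. With the replicate number as a block there were 369 higher and 1052 lower clusters. No source used here says that the numbers pair the samples. The deviations of same-numbered dKO XY and control XY arrays correlated at -0.191 to -0.0415, and none correlated best with its own number. These correlations do not exclude a pairing. The *Amh* and *Inhbb* calls held in all 18 alternative fits, at -7.09 to -6.81 and -1.3 to -1.23. Of 98 named genes none changed direction; 10 of the 88 called genes lost the call in some fit, and *Figla* gained one. Of 1044 list counts 38 moved by over 1.5 times, among them the TGF-beta ligands, with 0 lower without dKO XY array 3, and the piRNA and male germ cell genes, with 3 lower where the XY groups were fitted alone. Signals near the background probes, as for *Foxl2* and *Dnmt3l*, limit what a difference can show.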
